A study of Mus musculus with 24 samples.

Results

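Dermal papilla transcription factors are DNA-binding proteins whose genes have been linked to the dermal papilla (DP). The DP is the mesenchymal signaling center that sits under the epithelium of the hair follicle. The 10 genes described here were taken by name from a list of such factors, Sox2, Sox18, Tbx18, Tbx15, Prdm1, Trps1, Foxd1, Gata3, Twist1 and Twist2, and all 10 were found among the 25755 genes of the dataset. A place on the list does not make a gene a marker of the DP in these data. Gata3 in particular was the least abundant of the 10 in control cells at every age. The DP sends signals to the epithelium above it and in this way directs when a follicle enters growth (anagen) or rest (telogen) and which kind of hair it makes. Transcription factors set which of these signals a DP cell can make, and histone deacetylases such as Hdac1 and Hdac2 are recruited by many factors as part of repressor complexes. Several of the 10 are known as repressors, among them Prdm1, Trps1, Tbx18 and the Twist proteins.

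RNA was sequenced from sorted DP cells of individual mice in which Hdac1 and Hdac2 were both floxed and deleted with Corin-Cre (dM1/2 mice, Cor-cre/+; Hdac1Flox/Flox; Hdac2Flox/Flox) and of control mice. The controls also carried Corin-Cre and had various combinations of floxed and wild-type alleles, in some with both Hdac1 alleles or both Hdac2 alleles floxed but never all of them, and the labels do not give the genotype of each control library. There were 3 control and 3 dM1/2 libraries at each of P20 (first telogen), P24 (early anagen), P28 (mid-anagen) and P60 (second telogen), 24 in all. According to the methods, the P20 mice were female and the P24 and P28 mice male, whereas both sexes were used for the second telogen without a sex given for each P60 library, and cells were sorted by a fluorescent reporter of Cre activity. All values are normalized reads, which are the counts of reads per gene after the authors scaled each library by its size factor. Levels of different genes are compared only as normalized reads per kb of exon. The threshold for a call was an adjusted p under 0.05 in limma fits of log2(normalized reads + 1), and a log2 fold change of 1 is a doubling on that scale. In these bulk samples, fewer cells with a transcript and less of it in each cell cannot be told apart.

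Reads on genes ranged from 8171944 to 13369732 per library at P20 and P60 and from 35469841 to 49331751 at P24 and P28. Hdac1 had 675, 668 and 668 normalized reads in the P24 controls and 209, 188 and 116 in the P24 dM1/2 libraries, but at P28 the groups overlapped, with 214, 529 and 105 in controls and 190.2, 149 and 126 in dM1/2. The library labelled P28 control 3 thus had less Hdac1 than any P28 dM1/2 library. At P20 and P60 Hdac1 did not pass the threshold either, with log2 fold changes of -0.72 (95% interval -1.20 to -0.24) and -0.25 (95% interval -0.68 to 0.19), and its P60 libraries overlapped, with 506, 359.9 and 376 in controls and 371, 347 and 318 in dM1/2. Hdac2 did not pass the threshold at any age, and reads counted per gene cannot tell an intact transcript from one that lacks the floxed exons. Of 12 DP marker genes, none was at 0 in any group, and their summed level was 317546, 187075 and 514628 normalized reads in the P28 controls and 152698, 142852 and 154473 in the P28 dM1/2 libraries. In dM1/2, 8 of these markers were lower and 1 higher at P24, and 5 were lower and 1 higher at P28, and their part in the results below was not tested. The P28 controls differed in 6 fibroblast markers, mainly collagens, with the highest sum in control 2 (4527281, 11709005 and 682375 in controls 1, 2 and 3), and P60 dM1/2 1 had the highest sum of 10 endothelial markers (6415, 2665 and 1480.3 in dM1/2 1, 2 and 3). Results at P28 are therefore also given without P28 control 2 or 3, and those at P60 without P60 dM1/2 1.

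The positions are those of GENCODE M21 on GRCm38. Sox2 (ENSMUSG00000074637, chr3:34650405-34652461, plus strand) and Sox18 (ENSMUSG00000046470, chr2:181669836-181671640, minus strand) encode factors with an HMG box. Gata3 (ENSMUSG00000015619, chr2:9857078-9890034, minus strand) and Trps1 (ENSMUSG00000038679, chr15:50654752-50890463, minus strand) encode factors with GATA-type zinc fingers, of which Trps1 is a repressor whose loss in humans leaves the hair sparse. Foxd1 (ENSMUSG00000078302, chr13:98354242-98359305, plus strand) is a forkhead gene best known from the stroma of the kidney. Prdm1, also called Blimp1 (ENSMUSG00000038151, chr10:44437177-44528501, minus strand), encodes a zinc-finger repressor that is present in precursors of the DP. Twist1 (ENSMUSG00000035799, chr12:33957671-33959829, plus strand) and Twist2 (ENSMUSG00000007805, chr1:91801461-91848028, plus strand) encode basic helix-loop-helix proteins of mesenchyme, and Tbx18 (ENSMUSG00000032419, chr9:87702800-87731260, minus strand) and Tbx15 (ENSMUSG00000027868, chr3:99240381-99354259, plus strand) encode T-box proteins. Exons of Twist2 share 46.5% of their bases with the antisense gene Gm29100, and exons of Tbx18 share 20.6% with a gene on the opposite strand, D030062O11Rik, whereas for the other members such shared bases come to at most 3.90%. The libraries were directional, but the strand setting of the counting is not given in the sources used here, so the reads of Twist2 and Tbx18 may include some from these partners. Twist1 and Twist2 shared no run of 50 bases, the length of a read.

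RefSeq promoter sequences (GRCm38.p6) were at hand for 7 members, not for Sox18, Tbx15 and Trps1. Shown are the 250 bases before the RefSeq start of the 3 genes that differed most in fold at P28 among those 7, together with Tbx18, which changed in the opposite direction. For Gata3 and Prdm1 this start lies inside the locus given above, which spans all GENCODE transcripts and so includes some that begin farther upstream. For Foxd1 the bases shown end at 98354244, just inside the locus, which begins at 98354242. Capitals mark a GC box (spelled GGGCGG) on either strand. They also mark a CCAAT box and a TATA box (spelled TATAAA, likewise on either strand). Each sequence reads 5′ to 3′ on the strand of its gene, and the 3 motifs do not overlap in them.
Gata3, chr2:9878601-9878850, minus strand: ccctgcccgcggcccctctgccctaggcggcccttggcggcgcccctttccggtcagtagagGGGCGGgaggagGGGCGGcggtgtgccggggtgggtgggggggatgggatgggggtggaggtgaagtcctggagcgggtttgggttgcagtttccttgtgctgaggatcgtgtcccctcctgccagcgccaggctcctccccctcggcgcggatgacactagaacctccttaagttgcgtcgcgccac
Foxd1, chr13:98353995-98354244, plus strand: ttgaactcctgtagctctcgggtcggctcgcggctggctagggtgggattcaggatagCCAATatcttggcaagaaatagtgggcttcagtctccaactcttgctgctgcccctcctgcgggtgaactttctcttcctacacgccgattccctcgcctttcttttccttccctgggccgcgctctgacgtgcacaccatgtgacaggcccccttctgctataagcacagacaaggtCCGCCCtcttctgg
Prdm1, chr10:44458749-44458998, minus strand: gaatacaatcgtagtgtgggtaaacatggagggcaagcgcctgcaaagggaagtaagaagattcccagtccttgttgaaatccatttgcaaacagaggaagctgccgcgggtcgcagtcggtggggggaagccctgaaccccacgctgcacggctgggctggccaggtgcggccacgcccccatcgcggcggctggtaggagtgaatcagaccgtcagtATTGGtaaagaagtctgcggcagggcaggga
Tbx18, chr9:87731261-87731510, minus strand: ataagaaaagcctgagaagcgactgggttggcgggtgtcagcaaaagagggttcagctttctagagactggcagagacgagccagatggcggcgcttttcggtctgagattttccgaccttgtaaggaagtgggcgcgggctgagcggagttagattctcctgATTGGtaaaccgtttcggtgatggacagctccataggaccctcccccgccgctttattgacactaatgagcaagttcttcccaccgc
Gata3 had 2 GC boxes and Foxd1 1, Prdm1 and Tbx18 had none, and a GC box occurred in 32.7% of 32851 promoters of the same length. A CCAAT box, present in Foxd1, Prdm1 and Tbx18, occurred in 33.9% of all promoters, and a TATA box, found among the 7 members in Twist1 alone, in 12.4%. All 7 promoters held more CpG than the median of 6 in all promoters, from 12 in Foxd1 to 27 in Sox2. Tbx18, the member that was lower in dM1/2, had 15, the same number as Prdm1.

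In control DP cells the 10 genes differed widely in level and in their course over the hair cycle. Twist1 was the most abundant per kb of exon at every age, with a mean of 2483, 2022, 1231 and 2157 normalized reads per kb at P20, P24, P28 and P60. Gata3 was the least abundant, with 0.465, 9.24, 2.73 and 2.89 normalized reads per kb. Sox18 and Sox2 moved most in rank, by 4 places each. Sox18 had 167 normalized reads per kb at P20, 1361 at P24, where it had rank 3, 188 at P28 and 63.4 at P60, and Sox2 had 36, 583, 142 and 37.2.

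When the P24 and P28 controls were compared with the P20 and P60 controls, 8 of the 10 members changed, 4 of them higher and 4 lower in anagen, against 45.6% of all 14066 genes tested, 23.8% higher and 21.9% lower. Hair-cycle stage, sex and sequencing depth cannot be told apart in this comparison. Sox2, which in the mouse coat marks the DP of guard, awl and auchene hairs, showed the largest rise, from 102, 51.4 and 68.8 normalized reads at P20 and 52.5, 62 and 115 at P60 to 1338, 948 and 1311 at P24 and 385, 179 and 313 at P28 (log2 fold change 2.99, standard error 0.26, adjusted p = 1.17e-05). Each anagen control was above every telogen control. Sox18, mutated in mice with the ragged coat and also a factor of endothelial cells, had 273, 214 and 324 normalized reads at P20, 2815, 1509 and 2292 at P24, 357, 96.7 and 459 at P28 and 145, 62 and 101 at P60 (log2 fold change 2.18, standard error 0.36, adjusted p = 0.000754). It stood out at P24 alone, since the P28 controls overlapped those of P20 and P60. Trps1 (log2 fold change 0.74, adjusted p = 0.0261) and Gata3 (log2 fold change 2.09, adjusted p = 0.0125) were also called higher in anagen. Both had their highest control mean at P24, and their P28 controls overlapped those of telogen. Trps1 had means of 783, 1924, 925 and 775 normalized reads per kb at P20, P24, P28 and P60. For Gata3 the highest P60 control, with 25.2 normalized reads, was above the highest P28 control, with 18.3. No P20 control had more than 2.87 normalized reads of Gata3. The gene reached the mean of 10 normalized reads needed for this test through its P24 controls. Its call and the size of its change are therefore uncertain.

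The genes called lower in anagen in this comparison were Foxd1, Twist1, Twist2 and Tbx18. Foxd1 had 222, 197 and 269.6 normalized reads at P20 and 258, 257 and 265 at P60, compared with 152, 94.9 and 202 at P24 and 92.6, 101 and 56.9 at P28 (log2 fold change -1.17, standard error 0.20, adjusted p = 0.00092). Twist2 had 1888, 1639 and 1767 at P20 and 959, 1363 and 934 at P60, and 618, 627 and 521 at P24 and 567, 1127 and 240.4 at P28 (log2 fold change -1.29, standard error 0.29, adjusted p = 0.00441). The highest P28 value of Twist2 came from P28 control 2 and the lowest from the library labelled P28 control 3, which also had the highest and the lowest fibroblast marker sum, and the part of other fibroblasts in its level was not tested. Twist1 fell by 0.54 on the log2 scale (adjusted p = 0.00819) and Tbx18 by 0.43 (adjusted p = 0.0359). The control means of Tbx18 were 70.5, 72.8, 60.8 and 112.5 normalized reads per kb at P20, P24, P28 and P60. Tbx18 was thus highest at P60, and its mean at P24 was not below that at P20. Tbx18 lost the call when any of 8 of the 12 control libraries was left out, and Trps1 when any of 5 was. Tbx15, which sets the boundary of back and belly coat color, was the steadiest member, with every control library between 2584 and 4518 normalized reads. Prdm1 did not pass the threshold (log2 fold change -0.72, adjusted p = 0.0639).

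**Figure D1:**
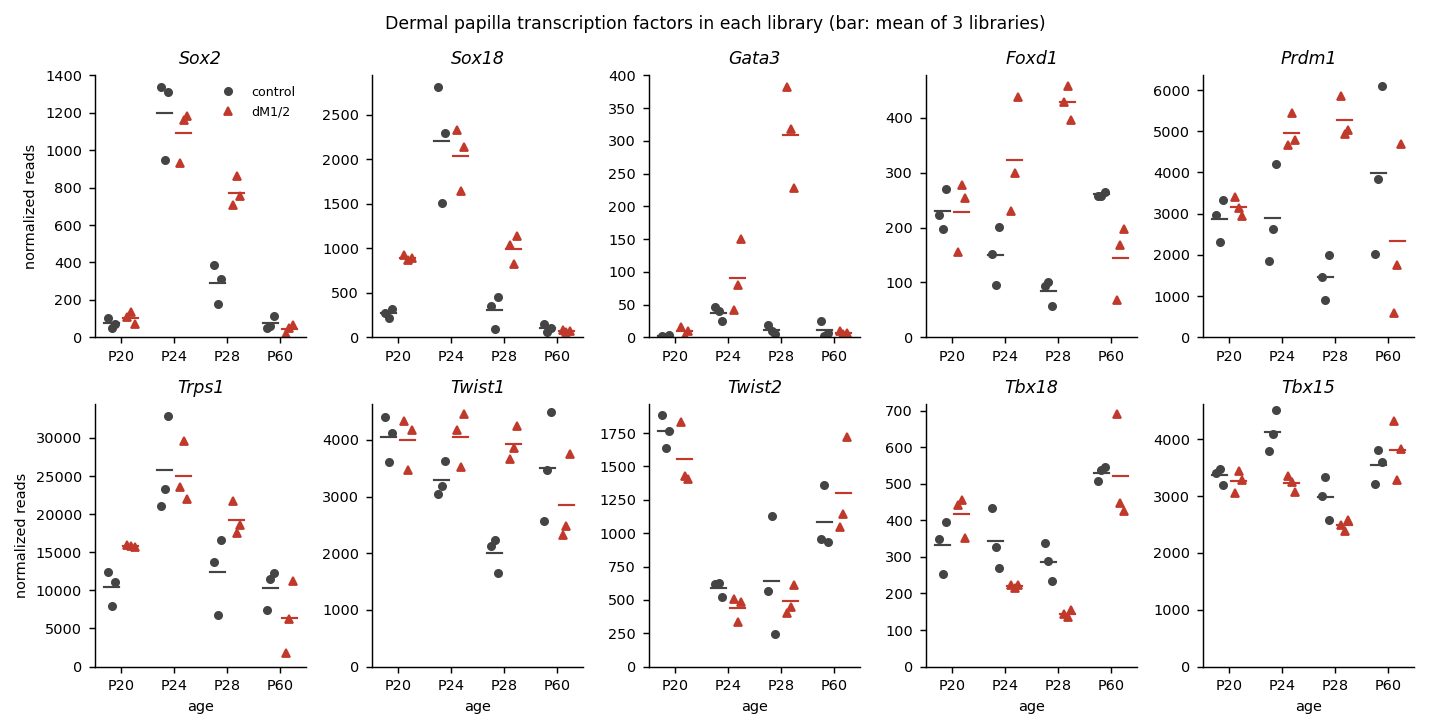
Normalized reads (vertical axes, starting at 0) of the 10 transcription factors in each of the 24 libraries by age (horizontal axes), with black circles for control, red triangles for dM1/2 and a bar at the mean of 3 libraries. At P28 the dM1/2 libraries lie above all controls for Sox2, Sox18, Gata3, Foxd1, Prdm1, Trps1 and Twist1, and below them for Tbx18 and Tbx15.

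At P20, in the first telogen, dM1/2 DP cells differed from controls in 1 of the 9 members that were abundant enough to be tested, Sox18, against 0.433% of all 13845 genes tested. Sox18 had 273, 214 and 324 normalized reads in controls and 923, 874 and 888 in dM1/2, a 3.35-fold rise (log2 fold change 1.74, standard error 0.16, adjusted p = 0.00503). The lowest dM1/2 library had 2.70 times the normalized reads of the highest control. The adjusted p was 0.0508 when P20 dM1/2 3 was left out and 0.0791 in 1 fit over all 24 libraries, with log2 fold changes of 1.75 and 1.74. Sox18 is also made by endothelial cells, and 10 of their markers summed to 1125, 1677 and 1351 normalized reads in the P20 controls and 1769, 1523 and 1226 in dM1/2, with overlapping groups, and none of the 8 that could be tested passed the threshold. The 3 lymphatic markers were higher in every P20 dM1/2 library, with sums of 72.3, 94.7 and 103 in controls and 105, 124 and 131 in dM1/2. The 6 fibroblast markers were lower in each of them, with sums of 11997228, 15441983 and 13400067 in controls and 8416658, 8181064 and 6273739.9 in dM1/2, although none of the 6 passed the threshold, and the part of these cells in the P20 results was not tested. Trps1 was the other member whose libraries did not overlap, with 12347, 7978 and 11103 in controls and 15988, 15773 and 15745 in dM1/2, but it did not pass (log2 fold change 0.62, 95% interval 0.25 to 0.99, adjusted p = 0.101). Groups that do not overlap were found for 25.4% of all genes at this age. Trps1 passed without P20 control 1 (adjusted p = 0.0238) and with DESeq2 (adjusted p = 0.0108). The other 7 had log2 fold changes from -0.19 (Twist2) to 0.50 (Sox2), with adjusted p of at least 0.349. Gata3 had at most 15.9 normalized reads in any P20 library and was below the limit for testing.

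At P24, in early anagen, 1 member was higher and 1 lower in dM1/2 of the 10 tested, whereas 26.6% of all genes were called, 14.8% as higher and 11.8% as lower. Foxd1 had 152, 94.9 and 202 normalized reads in controls and 230.4, 299 and 438 in dM1/2, a 2.17-fold rise (log2 fold change 1.12, standard error 0.33, adjusted p = 0.0403). Tbx18, a marker of the dermal condensate from which the DP forms, had 433, 328 and 270.3 in controls and 223, 216 and 223 in dM1/2 (log2 fold change -0.61, standard error 0.19, adjusted p = 0.0478). Both calls were close to the threshold. The call of Foxd1 was lost without control 1, control 2, dM1/2 2 or dM1/2 3, with log2 fold changes from 0.83 to 1.16 then, and that of Tbx18 without any library other than control 3, with adjusted p from 0.107 to 0.118.

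Of the other members at P24, Prdm1, Tbx15 and Twist2 had no overlap between the groups without passing the threshold, so that 5 of 10 did not overlap, compared with 44.8% of all genes. Prdm1 had 1847, 2618 and 4204 normalized reads in controls and 4673, 5451 and 4785 in dM1/2 (log2 fold change 0.86, 95% interval 0.22 to 1.5, adjusted p = 0.0538), and without P24 control 3, the highest control, its log2 fold change was 1.17 with an adjusted p of 0.00337. For Tbx15 the values were 3785, 4099 and 4518 in controls and 3354, 3243 and 3075 in dM1/2 (log2 fold change -0.36, adjusted p = 0.0622), and for Twist2 they were 618, 627 and 521 and 504, 337 and 485 (log2 fold change -0.43, adjusted p = 0.121). DESeq2 called Prdm1, Tbx15 and Gata3 in addition. Gata3 had 46.4, 39.7 and 24.2 in controls and 41.8, 80.4 and 150.5 in dM1/2, where the lowest dM1/2 library lay within the controls (log2 fold change 1.15, adjusted p = 0.117). Sox2 and Sox18, at their highest in controls at this age, showed log2 fold changes of -0.13 (95% interval -0.52 to 0.27) and -0.08 (95% interval -0.65 to 0.48). Those of Trps1 and Twist1 were -0.02 (95% interval -0.58 to 0.53) and 0.30 (95% interval -0.02 to 0.62).

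At P28, in mid-anagen, 7 of the 10 members changed in dM1/2, 6 of them higher and 1 lower. Of all 14126 genes tested, 35.5% were called, 20.0% as higher and 15.6% as lower, and the median log2 fold change was 1.22 over the 10 members and 0.00 over all genes. The libraries of the groups did not overlap for 9 of the 10, against 51.3% of all genes. Gata3 rose most. It had 18.3, 8.97 and 5.31 normalized reads in controls and 382, 318 and 228 in dM1/2, a 28.5-fold rise on the log2(normalized reads + 1) scale (log2 fold change 4.83, standard error 0.44, adjusted p = 0.000612), and on log2(normalized reads + 10) the log2 fold change was 3.95. The lowest dM1/2 library had 12.5 times the Gata3 of the highest control. Gata3 is best known from T cells and from the inner root sheath of the follicle, and Cd3e and Cd3g, which mark T cells, had at most 2.13 normalized reads in any P28 dM1/2 library. The summed level of 8 inner root sheath and hair shaft genes was 39.1, 78.1 and 68.3 in the P28 controls and 59.7, 31.7 and 59.8 in dM1/2, with overlapping groups. All 10 immune markers together summed to 364, 294 and 142 in the P28 controls and 289, 75.8 and 1124 in dM1/2 1, 2 and 3. The part of such cells in the level of Gata3 was not tested.

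Foxd1 and Prdm1 followed in size. Foxd1 had 92.6, 101 and 56.9 normalized reads in controls and 429, 459 and 397 in dM1/2, a 5.21-fold rise (log2 fold change 2.38, standard error 0.24, adjusted p = 0.000819). Prdm1 had 1458, 916 and 2000.1 in controls and 5866, 4941 and 5035 in dM1/2, a 3.79-fold rise (log2 fold change 1.92, standard error 0.28, adjusted p = 0.00258). The lowest dM1/2 library had 3.92 times the Foxd1 and 2.47 times the Prdm1 of the highest control. Twist1, the most abundant of the 10 per kb, had 2124, 2231 and 1655 in controls and 3669.9, 3854 and 4247 in dM1/2, a 1.97-fold rise (log2 fold change 0.98, standard error 0.15, adjusted p = 0.00353).

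Both Sox genes were higher in dM1/2 at P28. Sox2 had 385, 179 and 313 normalized reads in controls and 704, 861 and 754 in dM1/2, a 2.76-fold rise (log2 fold change 1.47, standard error 0.28, adjusted p = 0.00774). Sox2 is also made by Merkel cells and glia. The 6 glia markers summed to 1119, 685 and 668 normalized reads in the P28 controls and to 519, 652 and 515 in dM1/2. Of the 5 glia markers tested, however, 1 was called lower and 4 were not called, and their median log2 fold change was 0.08. The lower sums thus do not describe the glia list as a whole. The 3 Merkel markers summed to 179, 279.9 and 9.9 in controls and to 55, 52.3 and 41.8 in dM1/2, with overlapping groups. Atoh1 and Sox10, which define these cells, had at most 1.29 normalized reads in any P28 dM1/2 library, whereas other markers of the 2 lists were present there. The part of such cells in the level of Sox2 was not tested. Sox18 had 357, 96.7 and 459 in controls and 1034, 822 and 1135 in dM1/2 (log2 fold change 1.97, standard error 0.55, adjusted p = 0.0301). Its lowest control was P28 control 2, and without this library the log2 fold change was 1.29 and the adjusted p 0.00338. The call was lost without P28 control 1 or any one of the dM1/2 libraries, with adjusted p from 0.0506 to 0.0942.

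Because Sox18 is also a factor of blood and lymphatic endothelium, where it acts on Prox1, the markers of these cells are given beside it. The 10 endothelial markers summed to 1792, 1442 and 468 normalized reads in the P28 controls and 1334, 1267 and 1471 in dM1/2, and Pecam1 and Cdh5 did not pass the threshold (log2 fold change 0.15 and -0.39). A single endothelial marker of the 8 tested was called at P28, Flt1, a receptor for VEGF, with 77.4, 25.6 and 3.41 in controls and 677, 647 and 709 in dM1/2 (log2 fold change 5.02, standard error 0.94, adjusted p = 0.00709). Of the 3 lymphatic markers, Prox1 had 36.5, 50.6 and 35.6 in controls and 299, 200.1 and 199.5 in dM1/2 (log2 fold change 2.47, standard error 0.25, adjusted p = 0.000836), and Flt4 had 3.92, 3.2 and 1.52 and 26, 17.1 and 31.3 (log2 fold change 2.75, standard error 0.49, adjusted p = 0.00597), while Lyve1 had 17.4, 11.5 and 1.52 and 12.8, 3.43 and 33.7 (log2 fold change 0.62, adjusted p = 0.675). The controls of Flt4 were all below 10 normalized reads, so Flt4 entered the test through its dM1/2 libraries. Lymphatic markers were higher in dM1/2 at P24 as well, when Sox18 was not called. The 3 markers then summed to 84.7, 93.4 and 110.4 normalized reads in controls and to 267.5, 305.4 and 266.5 in dM1/2, and 1 of the 3 was called higher. Sox7 and Sox17, the closest relatives of Sox18 and likewise endothelial, had at most 16.9 and 4.82 normalized reads in the P28 dM1/2 libraries. The part of endothelial cells in the level of Sox18 was not tested further.

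Tbx18 was the member that was lower in dM1/2 at P28. It had 338, 290.1 and 233 normalized reads in controls and 145, 135 and 154 in dM1/2, a 1.96-fold lower level (log2 fold change -0.97, standard error 0.18, adjusted p = 0.00726). The other T-box gene, Tbx15, also lay below all controls in each dM1/2 library but did not pass the threshold, with 3003, 3344 and 2584 and 2485, 2385 and 2580.2 (log2 fold change -0.25, 95% interval -0.57 to 0.06, adjusted p = 0.182). Trps1 had 13773, 6752 and 16586 in controls and 21663, 17498 and 18549.7 in dM1/2, above all controls (log2 fold change 0.73, 95% interval -0.10 to 1.56, adjusted p = 0.149). For Twist2 the controls spread over 567, 1127 and 240.4 and held all the dM1/2 values of 403, 449.9 and 611 (log2 fold change -0.16, 95% interval -1.39 to 1.07), an interval too wide to place the gene on either side of 0.

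The 7 changed members at P28 were also called without P28 control 2, with log2 fold changes of 4.78 for Gata3, 2.54 for Foxd1, 1.62 for Prdm1, 1.15 for Sox2, 1.06 for Twist1 and -0.96 for Tbx18. Without the library labelled P28 control 3, whose Hdac1 was low, the same 7 and also Trps1 were called, 8 in all, with log2 fold changes of 4.45 for Gata3, 2.13 for Foxd1, 2.19 for Prdm1, 2.40 for Sox18, -1.11 for Tbx18 and 0.99 for Trps1.

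At P60, in the second telogen, no member passed the threshold with limma, edgeR or DESeq2, and with limma none of the 14042 genes tested did (0%). At an unadjusted p under 0.05 there were 525 genes, with 1 member among them, Foxd1. Foxd1 had 258, 257 and 265 normalized reads in controls and 68.2, 168 and 198 in dM1/2 (log2 fold change -0.98, 95% interval -1.85 to -0.10, adjusted p = 0.986), the single member whose groups did not overlap, against 8.87% of all genes. P60 dM1/2 1 had the lowest value of any P60 library for Sox2, Prdm1, Trps1, Foxd1 and Twist1. Trps1 had 7361, 11439.9 and 12291 in controls and 1789.9, 6266 and 11233 in dM1/2 (log2 fold change -1.01), and Prdm1 had 2019, 3849 and 6101 and 588, 1760.05 and 4693 (log2 fold change -1.09). Sox2 had 52.5, 62 and 115 in controls and 17.7, 47.8 and 63.5 in dM1/2 (log2 fold change -0.91). Without P60 dM1/2 1 the log2 fold changes were -0.51 for Foxd1, -0.27 for Trps1, -0.33 for Prdm1 and -0.38 for Sox2. Sox18, Tbx18, Tbx15, Twist1 and Twist2 had log2 fold changes of -0.45, -0.06, 0.10, -0.30 and 0.25 with all 3 libraries, and Gata3 was below the limit for testing.

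**Figure D2:**
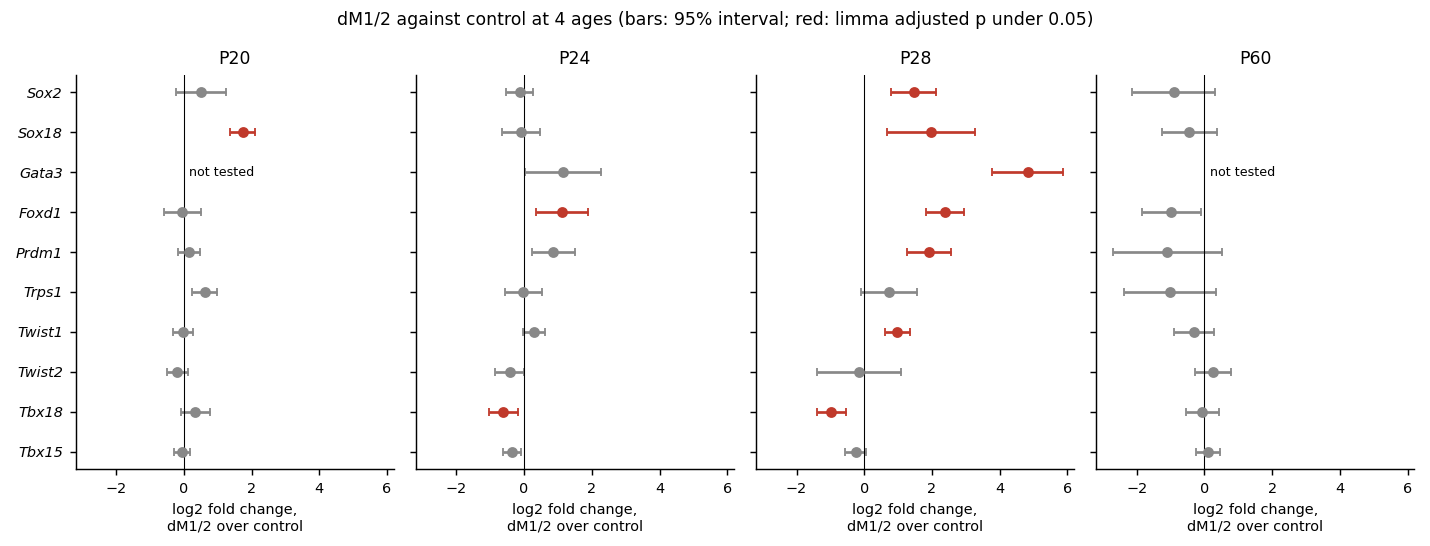
Log2 fold change of dM1/2 over control (horizontal axes) for each of the 10 factors at P20, P24, P28 and P60, with the 95% interval of the limma fit over 3 control and 3 dM1/2 libraries and red for an adjusted p under 0.05. Sox18 alone is red at P20, Foxd1 and Tbx18 are red at P24, and 7 members are red at P28, with Gata3 farthest to the right at 4.83.

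Between P24 and P28 the fitted values of all 10 members were lower at P28 in controls, but only Sox2 passed the threshold, while 1.46% of all genes did. The median log2 fold change was -0.89 over the members and -0.02 over all genes. For Twist2 the mean without logarithm was higher at P28, with 203 normalized reads per kb against 185 at P24. Sox2 went from 1338, 948 and 1311 normalized reads at P24 to 385, 179 and 313 at P28 (log2 fold change -2.09, standard error 0.30, adjusted p = 0.0384), and the call was lost when any single library was left out. Sox18 went from 2815, 1509 and 2292 to 357, 96.7 and 459 (log2 fold change -3.08, adjusted p = 0.0641), a larger difference with a wider spread. Sox18, Trps1, Gata3, Twist1 and Tbx15 had no overlap between the ages either, so that 6 members in all did not overlap, against 26.6% of all genes. Their log2 fold changes were -1.13 for Trps1, -1.78 for Gata3, -0.72 for Twist1 and -0.48 for Tbx15. Prdm1 and Foxd1 had -0.98 and -0.81. DESeq2 called Sox18, Trps1, Gata3 and Twist1 in addition to Sox2.

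In dM1/2, 1 of the 10 members was called from P24 to P28, Sox18, from 2331, 1641 and 2141 normalized reads to 1034, 822 and 1135 (log2 fold change -1.03, standard error 0.17, adjusted p = 0.0202), against 2.67% of all genes, and the call was lost without P24 dM1/2 1 or P28 dM1/2 2. Sox2 went from 932, 1160.4 and 1185 to 704, 861 and 754 (log2 fold change -0.50, adjusted p = 0.107). Gata3 was higher in every P28 dM1/2 library than in every P24 one, with 41.8, 80.4 and 150.5 at P24 and 382, 318 and 228 at P28, just short of the threshold (log2 fold change 1.91, adjusted p = 0.0513). The log2 fold changes of Foxd1, Prdm1 and Trps1 were 0.45, 0.09 and -0.37. Tbx18 and Tbx15 had -0.61 and -0.38, and 6 members in all did not overlap between the ages, against 21.8% of all genes.

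The difference between these courses was tested over the 12 libraries. Gata3 passed, with a difference of log2 fold changes of 3.68 (standard error 0.71, adjusted p = 0.044), against 0.707% of all genes. The call was lost without any single library other than P28 control 1, with log2 values from 3.23 to 4.14 then, with edgeR, without a filter on low values and in the fit over 24 libraries. Sox2 had a difference of 1.59 (95% interval 0.82 to 2.36, adjusted p = 0.0684), which passed with DESeq2 and without P28 control 1 or P28 control 2. The other intervals above 0 belonged to Sox18 (0.60 to 3.50), Foxd1 (0.29 to 2.23) and Twist1 (0.24 to 1.12), and Prdm1 had a difference of 1.06 (standard error 0.43), with adjusted p from 0.171 to 0.337. The interval of Trps1 ran from -0.22 to 1.72.

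**Figure D3:**
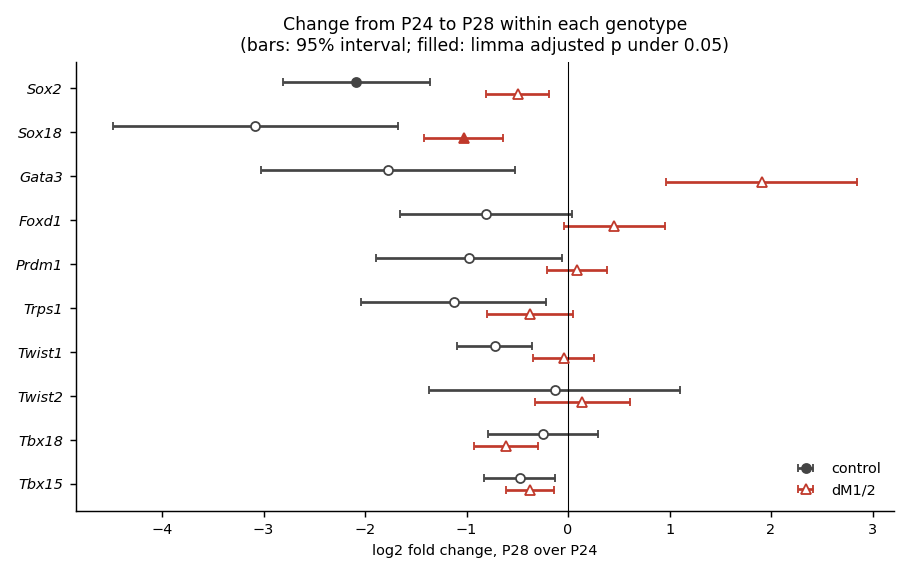
Log2 fold change from P24 to P28 (horizontal axis) of each factor in controls (black circles) and in dM1/2 (red triangles), with 95% intervals and filled symbols for an adjusted p under 0.05. All 10 controls lie left of 0, whereas Gata3, Foxd1, Twist2 and Prdm1 lie right of 0 in dM1/2.

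The mean effect of the dM1/2 genotype in anagen (P24 and P28) was then set against that in telogen (P20 and P60) over all 24 libraries. It differed for 6 of the 10 members, 4 of them with a higher and 2 with a lower effect in anagen, against 30.2% of all genes, 16.1% higher and 14.1% lower, and here too stage, sex and depth cannot be told apart. The difference of log2 fold changes was 2.26 for Foxd1 (standard error 0.35, adjusted p = 0.000116), 2.17 for Gata3 (standard error 0.73, adjusted p = 0.029) and 1.86 for Prdm1 (standard error 0.50, adjusted p = 0.00839). Gata3 was below the limit for testing at P20 and at P60 and entered this fit through its anagen libraries. Its telogen effect rests on few reads, so the size of its difference is uncertain. Twist1 had 0.80 (standard error 0.19, adjusted p = 0.00376). On the other side were Tbx18 with -0.93 (standard error 0.20, adjusted p = 0.00178) and Tbx15 with -0.33 (standard error 0.12, adjusted p = 0.0335). Sox18, which was higher in dM1/2 at P20 as well as at P28, did not differ past the threshold, nor did Sox2 (difference 0.87, adjusted p = 0.0989), Trps1 or Twist2. Tbx15 lost the call with edgeR and without any of 10 single libraries, and Gata3 with edgeR and without any of 4.

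The 2 telogen ages, which cannot be told apart here from differences in sex, differed for 3 of the 9 members tested in controls, against 12.6% of all genes, and the same 3 did not overlap between the ages, against 34.8%. Sox18 was lower at P60 than at P20, with 145, 62 and 101 and 273, 214 and 324 normalized reads (log2 fold change -1.45, standard error 0.31, adjusted p = 0.0168), and so was Twist2 (log2 fold change -0.72, standard error 0.16, adjusted p = 0.0221). The fibroblast marker sum was also lower at P60, with 2641475, 2989055 and 2501351 in the P60 controls against 11997228, 15441983 and 13400067 at P20, and its part in these results was not tested. Tbx18 was higher at P60, with 508, 539 and 546 against 348, 254 and 396 (log2 fold change 0.70, standard error 0.18, adjusted p = 0.0359). Left without one library, Tbx18 lost the call for 5 of 6 libraries, Twist2 for 3 and Sox18 for P20 control 3. In dM1/2, Sox18 was again lower at P60, from 923, 874 and 888 at P20 to 83.3, 62.9 and 68.2 at P60 (log2 fold change -3.64, standard error 0.18, adjusted p = 0.000525), the single member called against 6.32% of all genes. Trps1 and Sox2 did not overlap between the ages in dM1/2 either, so that 3 members did not, against 32.7% of all genes, with log2 fold changes of -1.66 (adjusted p = 0.125) and -1.40 (adjusted p = 0.135), and Trps1 passed without P60 dM1/2 1 (log2 fold change -0.92, adjusted p = 0.0367) or without P60 dM1/2 3. Whether the P60 minus P20 difference of Sox18 differed between the genotypes was not tested.

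Of 14 close relatives of the 10 factors, 6 had enough reads to be tested at P24 and at P28. At P24, 1 was higher and none lower in dM1/2, and at P28, 2 were higher and 1 lower, against 26.6% and 35.5% of all genes called in either direction. Gata2, the relative of Gata3, had 3.04, 0 and 2.27 normalized reads in the P28 controls and 247, 281 and 212 in dM1/2 (log2 fold change 6.70, standard error 0.56, adjusted p = 0.00046), and at P24 it had 4.64, 6.03 and 7.14 and 45.4, 95.2 and 199 (log2 fold change 3.81, standard error 0.53, adjusted p = 0.00314). All Gata2 controls of both ages were below 10 normalized reads, so Gata2 entered these tests through its dM1/2 libraries. With controls so near 0, the size of its log2 fold changes depends on the 1 added to each value. In both genes the libraries of the groups stood far apart at P28. Gata2 had already passed the threshold at P24, when Gata3 had not, but the difference between these genes was not tested. Foxd2, next to Foxd1 in the forkhead family, rose at P28 (log2 fold change 0.88, adjusted p = 0.0235), and Prdm16 fell (log2 fold change -0.96, adjusted p = 0.0223).

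All 17 listed partners and cofactors of the 10 proteins were tested. At P24, 3 were higher and 4 lower in dM1/2, against 14.8% and 11.8% of all genes, and at P28, 6 were higher and 4 lower, against 20.0% and 15.6%, with a median log2 fold change of 0.01 and 0.40. Zfpm1, a cofactor of GATA proteins, had 236, 328 and 86.5 normalized reads in the P28 controls and 687, 644 and 645 in dM1/2 (log2 fold change 1.80, standard error 0.45, adjusted p = 0.0212), and it had risen at P24 as well (log2 fold change 2.13, adjusted p = 0.00201). Zfpm2, the second such cofactor, fell at P24 (log2 fold change -0.79) and at P28 (log2 fold change -1.13). The Snail genes, which like Twist act in mesenchyme as repressors, also parted, since Snai1 rose at P24 (log2 fold change 1.02) and P28 (1.5) and Snai2 fell at P24 (log2 fold change -1.41) and P28 (-1.39). Snai2 had 1195, 1029 and 979 normalized reads in the P24 controls and 462, 381 and 364 in dM1/2. Tcf4, an E protein that pairs with Twist, rose at P28 (log2 fold change 1.22, adjusted p = 0.021). Among the Groucho corepressors, Tle1 rose at P24 (log2 fold change 0.64) and Tle2 fell at P24 (-1.5) and P28 (-1.28). Id4, an inhibitor of helix-loop-helix pairing, fell at P24 (log2 fold change -1.10).

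Of 19 other transcription factors of hair-follicle mesenchyme, 3 were higher and 1 lower at P24, against 14.8% and 11.8% of all genes, and 6 were higher and 2 lower at P28, against 20.0% and 15.6%. Sox9 rose most, with 140.1, 84.5 and 44.8 normalized reads in the P28 controls and 1313, 1252 and 1151 in dM1/2 (log2 fold change 3.92, standard error 0.38, adjusted p = 0.0007), after a rise at P24 (log2 fold change 1.95, adjusted p = 0.00215). Sox11 had 206, 245 and 456 and 2562, 2244 and 2301 (log2 fold change 3.05, standard error 0.29, adjusted p = 0.000658). Sox4 and Tcf7 were higher at P24 (log2 fold change 0.96 and 0.88), and Tbx3, unlike Tbx18, was higher at P28 (log2 fold change 1.15, adjusted p = 0.00603). Runx3 fell at P24 (log2 fold change -1.16), and Foxp1 and Ebf1 fell at P28 (log2 fold change -1.14 and -1.06).

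Of 6 genes known as targets of the DP factors or as signals of the DP, none was called higher in dM1/2 at P24 or P28, 2 were lower at P24 and 3 at P28, against 11.8% and 15.6% of all genes. Sostdc1, an antagonist of Wnt and BMP signals and known as a target of Sox2, had 28785, 14252 and 31311 normalized reads in the P28 controls and 2231, 2865 and 2501 in dM1/2 (log2 fold change -3.22, standard error 0.31, adjusted p = 0.000718), and it fell at P24 too (log2 fold change -3.05). Bmp6, a BMP ligand of the DP, had 4832, 5839 and 6103 in the P24 controls and 2537, 1688 and 1969.6 in dM1/2 (log2 fold change -1.45, standard error 0.18, adjusted p = 0.0021), and fell at P28 too (log2 fold change -2.66). Apcdd1, a Wnt inhibitor, fell at P28 (log2 fold change -1.18, adjusted p = 0.0029). Wif1, Vcam1 and Postn had log2 fold changes of -0.27, -0.28 and -0.46 at P28, all short of the threshold.

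**Figure D4:**
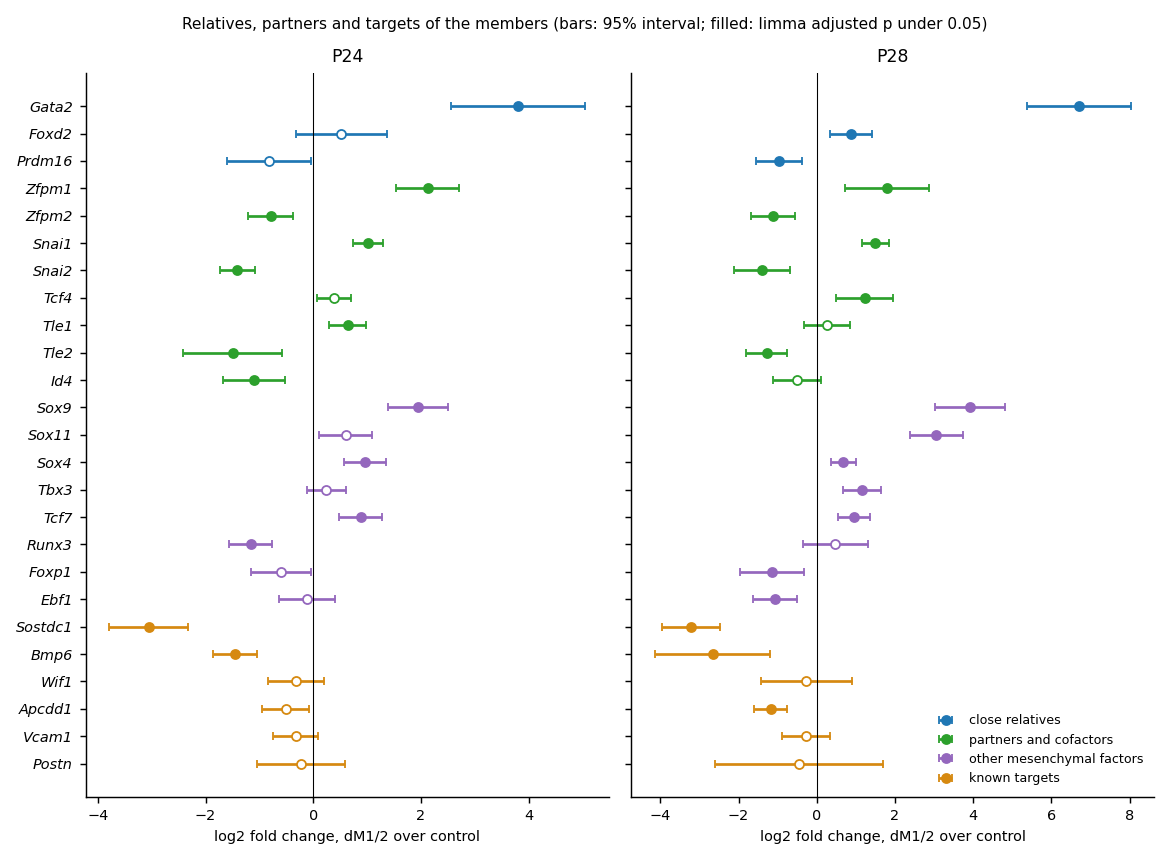
Log2 fold change of dM1/2 over control (horizontal axes) at P24 and P28 for the named relatives, partners, other mesenchymal factors and targets of the 10 factors, with 95% intervals and filled symbols for an adjusted p under 0.05. Gata2 lies farthest right at both ages, at 3.81 and 6.70, and Sostdc1 farthest left, at -3.05 and -3.22.

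Across the 24 libraries, the genes most like each member were found by the root mean square difference of centered log2(normalized reads + 1), among 13310 genes. The nearest genes were Msx2 (0.60), Adgrb1 (0.64) and Efnb3 (0.70) for Sox2, whose own root mean square over the libraries was 1.89, with the difference in parentheses. Those of Sox18 were Mycl (0.69), Cd24a (0.77) and Fras1 (0.83), against 1.82. Gata3, with the largest own value of 2.22, also had the largest differences, to Mmp24 (0.97), Tmeff1 (1.06) and Dlx5 (1.07). Differences are not scaled by a gene's own value, so they do not rank the members by how closely they were followed. For Foxd1, with 0.80, the nearest genes were L1cam (0.38), Nrm (0.43) and Ier5l (0.43). For Prdm1 (0.84) they were Sobp (0.41), Neto2 (0.44) and Plcg2 (0.48), and for Trps1 (0.88) Sh2b2 (0.32), Fnbp1l (0.33) and Myocd (0.35). The 2 Twist genes had different neighbors, Ube2s (0.14), Ptma (0.19) and Nupl1 (0.20) for Twist1 and Lrig1 (0.25), Slc7a1 (0.26) and Herpud1 (0.30) for Twist2. Tbx18 was closest to Tyk2 (0.27), Tns1 (0.28) and Zfp592 (0.30), and Tbx15 to Atxn1l (0.13), Slc39a10 (0.14) and Eif4g3 (0.15). No member was among the 3 nearest genes of another. The pair of members with the smallest difference was Tbx15 with Twist1 at 0.45, which is above their own values of 0.23 and 0.39. The libraries share age, sex and depth, so these values describe the dataset and are no test.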

How the data were processed

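RNA from DP cells sorted for a fluorescent reporter was depleted of ribosomal RNA and sequenced with directional, single-end 50-base reads. Per the methods, reads were trimmed with Trimmomatic, aligned to mm10 with Tophat 2 and counted per gene with HTSeq on Ensembl GRCm38 genes. The deposited values are of the unit signal, read counts that the authors divided by DESeq2 size factors over the 24 libraries, and whole reads could be recovered from 100% of them (tolerance 0.01). The version of DESeq2 and the strand setting of HTSeq are not given in the sources used here. Columns with fold changes and p-values of the authors' own comparisons were not used.

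The 10 members were taken by gene name. Members, related lists and tests were chosen with earlier results of these data known. Genes averaging 10 or more normalized reads over the libraries compared were tested on log2(normalized reads + 1) with limma 3.58.1 (trend, moderated statistics, two-sided) in R 4.3.3, with Benjamini-Hochberg adjustment over all genes tested and a threshold of 0.05. There were 11 comparisons, each fitted on its own groups, and the anagen-telogen fits used all control or all 24 libraries. Nothing in the files says whether the mice of a group shared a litter, and p-values measure the spread between these mice. Replicates of a group differed by more than sampling noise (chi-square per gene of at least 11.0). The named genes are the members, with, from each related list, the 3 called genes with the largest change in each direction at P24 and at P28, and all 6 targets. Marker genes named beside Sox2, Sox18 and Gata3 were chosen after their values were seen. A gene was taken out of the list of other mesenchymal factors afterwards and is not reported here. Alternatives were log2(normalized reads + 10), no filter, limma on log2-CPM with TMM, edgeR 4.0.16 with TMM and DESeq2 1.42.0 on the recovered reads, 1 fit over all libraries, the replicate number as a block, and each library left out in turn. The fits were tested on counts simulated for the P24 comparison alone, with the same fixed spread for all genes. This spread was not estimated from these replicates, so the simulation does not show how the fits perform with the spread between these mice. Loci came from GENCODE M21 and promoters from RefSeq (GRCm38.p6). Depth limits low genes such as Gata3 most at P20 and P60.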

Additional observations from a re-analysis of the deposited data

Results flagged for a closer look

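The change from P24 to P28 differed between dM1/2 and control for Gata3, by 3.68 on the log2 scale. The effect of the dM1/2 genotype differed between anagen and telogen, as a difference of log2 fold changes, by 2.26 for Foxd1, 2.17 for Gata3, 1.86 for Prdm1, 0.80 for Twist1, -0.33 for Tbx15 and -0.93 for Tbx18. Each was tested as a difference in limma. Gata3 was below the limit for testing at P20 and at P60, so its telogen effect rests on few reads. The test for a single outlying sample was not run, since it needs more than 3 libraries a group.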

How the results depend on the processing

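Over 85 reported values and their alternatives, 1219 of 1354 recomputed values kept both direction and side of the threshold, 84 lost the call, 36 gained it and 15 turned in direction. The number of members called moved as follows. At P20 it was 2 with DESeq2 and 0 with 1 fit over all 24 libraries. At P24 it was 1 without a filter, 5 with DESeq2 and 1 with the replicate block. From P24 to P28 in controls it was 5 with DESeq2 and 4 with the fit over 24, and in dM1/2 it was 2 with log2(normalized reads + 10), 5 with DESeq2, 2 with the replicate block and 0 with the fit over 24. For the difference of these changes it was 0 without a filter, with edgeR, with the replicate block and with the fit over 24, and 2 with DESeq2. Between P20 and P60 it was 1 with the replicate block in controls and 3 with the fit over 24 in dM1/2. With each library left out in turn, the number called ranged from 0 to 2 at P20, 0 to 3 at P24, 6 to 8 at P28 and 0 to 0 at P60, from 0 to 0 for P24 to P28 in controls, 0 to 2 in dM1/2 and 0 to 2 for their difference, from 0 to 3 for P20 to P60 in controls and 1 to 4 in dM1/2, from 7 to 8 for anagen against telogen and from 4 to 7 for the difference of effect.

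Directions turned only for members that were not called. At P20, the log2 fold change of Foxd1 was 0.0102 with edgeR and 0.0047 with DESeq2, and -0.20 to 0.22 with a library left out, that of Tbx15 -0.0851 to 0.0035 and that of Twist1 -0.10 to 0.0770. At P24 the leave-one-out range was -0.33 to 0.12 for Sox18 and -0.16 to 0.17 for Trps1, at P28 it was -0.73 to 0.38 for Twist2, and at P60 -0.28 to 0.0681 for Tbx18. The cause was not tested.

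The number of all genes called, 60 at P20, 3735 at P24 and 5018 at P28, was 439, 2366 and 3713 with the replicate block, and from P24 to P28 in controls it was 27 in place of 204. At P60, edgeR called 0 genes and DESeq2 26. Libraries of the 2 genotypes with the same number did not deviate together at every age. Their correlations were 0.231, 0.082 and 0.116 at P20 and 0.344, 0.024 and 0.171 at P60, all positive. At P24 they were -0.179, 0.043 and -0.401, and at P28 -0.152, 0.027 and -0.229. The numbers were therefore not taken to pair mice at any age, although a pairing at P20 and P60 is not excluded. With the pseudocount of 10, 25 of the 30 genes most like a member were kept.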
